A study of Mus musculus with 9 samples.

Results

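The genes described here are 10 members of the heat shock response, taken by symbol from a table of 55492 genes in 9 RNA libraries of the mouse mammary carcinoma line D2.0R (also written D2.OR): Hspa1a, Hspa1b, Hspa8, Hsph1, Dnajb1, Bag3, Hspb1, Hsp90aa1, Hspd1 and Hspe1. Each symbol stood on 1 row. All libraries came from cells of this line that had been loaded with CellTrace Far Red (CTFR), a dye that dividing cells dilute, and then kept for a week in DMEM with 2% serum (FBS). Cells were sorted by the dye into CTFR+ and CTFR- fractions, and a bulk sample is also named, but 0 of the 9 libraries could be tied to a fraction by its labels. The libraries are therefore called by the running number in their titles, and every value is given library by library. Libraries 1 to 3, 4 to 6 and 7 to 9 are called blocks, and the place of a library is its position within its block. No label says what a block or a place stands for, or whether the libraries came from separate cultures.

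Heat shock proteins are chaperones that bind unfolded proteins and help them fold. When misfolded proteins accumulate, the transcription factor HSF1 binds heat shock elements, which are inverted repeats of the bases GAA, and raises transcription of its targets. Some of these genes, such as Hspa1a and Hspa1b, are known as strongly inducible, whereas Hspa8 is made in unstressed cells as well, and Hspd1 and Hspe1 encode the chaperonin of the mitochondrial matrix. Tumour cells often carry high levels of these chaperones.

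Of the 10 genes 9 were measured well above the filter on low counts, and the heat shock genes did not move as one. Hspb1 (a small heat shock protein), Hspa1b (inducible HSP70), Dnajb1 (its J-domain partner) and Bag3 (a co-chaperone) had their 3 highest levels in libraries 2, 5 and 8. Hspd1, the mitochondrial HSP60, and Hsp90aa1, the inducible HSP90, had their 3 lowest levels in those same libraries, Hsp90aa1 with TMM scaling but not with DESeq2 size factors or library totals alone. Hspb1 differed 2.79-fold between its highest and lowest library, and the other 8 measured genes between 1.28-fold and 1.96-fold. Hspa1a, the near-identical neighbour of Hspa1b, had between 0 and 9 counts.

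Promoter sequences of 8 of the 10 genes, from RefSeq on build GRCm38.p6, are described first, because the elements that HSF1 recognises lie near the starts of its targets. Hspa8 and Hsp90aa1 had no entry. The search covered windows from 250 bases before to 50 bases after each start, and looked for GAANNTTC and TTCNNGAA, each of which reads the same on both strands, and for each of them with a further unit in the same spacing, NNGAA after the former and NNTTC after the latter. These longer forms are each other's reverse complement, and each contains both shorter ones. A pair of units was found in 15.1% of all 32851 windows and a run of 3 units in 0.603% of them. Of the 8 genes, 7 held a pair of units (8 of their 11 windows) and 3 held a run of 3 units (4 of the 11 windows). These matches describe the letters and are not a measurement of binding.

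The first set shows the 250 bases before the starts of the inducible HSP70 pair and of Hspb1, 5′ to 3′ on the gene's own strand, with each GAANNTTC in capitals. The first 2 lie on the minus strand, at chr17:34959239-34959488 for Hspa1b and at chr17:34972157-34972406 for Hspa1a, and the Hspb1 stretch lies on the plus strand at chr5:135887669-135887918. None of them overlaps an exon of the 10 genes.
Hspa1b: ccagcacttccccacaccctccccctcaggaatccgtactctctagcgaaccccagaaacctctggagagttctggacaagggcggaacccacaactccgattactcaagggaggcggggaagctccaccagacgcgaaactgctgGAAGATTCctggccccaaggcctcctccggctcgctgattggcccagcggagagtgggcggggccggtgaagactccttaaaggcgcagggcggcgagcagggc
Hspa1a: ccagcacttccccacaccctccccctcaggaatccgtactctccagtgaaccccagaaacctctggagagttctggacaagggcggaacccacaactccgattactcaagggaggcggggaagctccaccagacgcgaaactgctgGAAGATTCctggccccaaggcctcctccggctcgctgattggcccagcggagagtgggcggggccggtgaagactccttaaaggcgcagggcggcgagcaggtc
Hspb1: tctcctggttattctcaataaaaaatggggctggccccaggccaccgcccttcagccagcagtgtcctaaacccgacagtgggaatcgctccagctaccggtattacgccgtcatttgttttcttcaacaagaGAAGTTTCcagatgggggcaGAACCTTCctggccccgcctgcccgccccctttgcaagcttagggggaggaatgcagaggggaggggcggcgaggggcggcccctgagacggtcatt

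Hspa1a and Hspa1b shared 247 of these 250 bases. Counted from the first base printed, with the base of Hspa1a before the position and that of Hspa1b after it, the differences were C44T, T47C and T249G, all outside the element. The element began 104 bases before the start in both genes. Hspb1 held 2 copies, which began 117 and 97 bases before its start.

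The second set shows the runs of 3 or more units, with the matched letters in capitals, and the single match of Bag3. The element beside Hspe1 lies at chr1:55088053-55088082 on the plus strand, between a start of Hspe1 and a start of Hspd1, which are read away from each other. Each of the 2 genes held it in a window of its own, 89 bases before the start of Hspe1 and 144 bases before that of Hspd1. It also lies in an exon of a longer Hspd1 transcript. The element of Hsph1 (chr5:149636287-149636308, minus strand) and that of Bag3 (chr7:128523614-128523632, plus strand) lay after a start, inside an annotated exon of the gene.
Hspe1 and Hspd1: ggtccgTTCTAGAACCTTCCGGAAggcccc
Hsph1: gctgcagaTTCTGGAAAGTTCt
Bag3: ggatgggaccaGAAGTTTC

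Neither window of Dnajb1 held these letters.

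The 9 libraries held 18732737 (library 9) to 41243036 (library 7) estimated counts, and levels are given as CPM, counts per 1e6 counts of a library scaled by the TMM method. The floor of 3 counts was worth 0.0742 CPM in the deepest library and 0.164 CPM in the shallowest. Genes with an mt- symbol, which are mitochondrially encoded, took 1.31% to 2.05% of the counts, and the 10 heat shock genes 0.274% (library 2) to 0.350% (library 7). The line's own markers were present, with Krt8 (a keratin) at 146 to 662 CPM and Vim (vimentin) at 3496 to 5848 CPM, both highest in libraries 2, 5 and 8. The other 2 line markers overlapped between those libraries and the rest, Krt18 (a keratin) at 38.0 CPM (library 9) to 156 CPM (library 1) and Cd44 (an adhesion receptor) at 276 CPM (library 1) to 491 CPM (library 9). All 5 markers of natural killer cells (Ncr1, Klrk1, Klrd1, Gzma and Nkg7) and both of red cells (Hba-a1 and Hbb-bs) had 0 counts in every library. Of 3 endothelial markers none passed 0.485 CPM. Of 5 leukocyte markers Ptprc stayed at or below 0.109 CPM, and their summed level ran from 5.89 to 15.7 CPM, nearly all of it from Cd68 and Cd14. Cd68 was lower in libraries 2, 5 and 8 (2.74 to 4.60 CPM) than elsewhere (6.40 to 11.0 CPM), as Hspd1 was, and Cd14 was lower in each later block, as Dnajb1 was. The former order held in 20.1% of all tested genes and the latter in 12.6%. The part of Cd68 and Cd14 in the results for Hspd1 and Dnajb1 was not tested. These are bulk samples, in which more transcript per cell and more cells of a kind cannot be told apart.

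The spread over libraries exceeded counting noise in all 9 measured heat shock genes (dispersion chi-square on 8 degrees of freedom, Benjamini-Hochberg adjusted over 12813 genes), as it did in 94.1% of all tested genes. With a range of at least 2-fold as a further condition 1 of the 9, Hspb1, was called variable, against 28.0% of all tested genes. At 1.5-fold the count was 5 of 9 against 56.7%, and with an interquartile range of at least 0.5 on the log2 scale, taken in place of the range, it was 2 of 9 (Hspb1 and Hspa1b) against 25.2%. The adjusted p was 4.73e-41 for Dnajb1, 7.94e-41 for Bag3, 3.36e-70 for Hsph1 and 5.84e-161 for Hspe1, and for Hspa8, Hsp90aa1 and Hspd1 (chi-square of 3102, 4712 and 6391) it was too small for the software to hold. These p-values measure only the spread between these libraries, which may be technical. The median range of the 9 genes was 0.69 on the log2 scale, and that of all tested genes 0.69 as well.

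**Figure D1:**
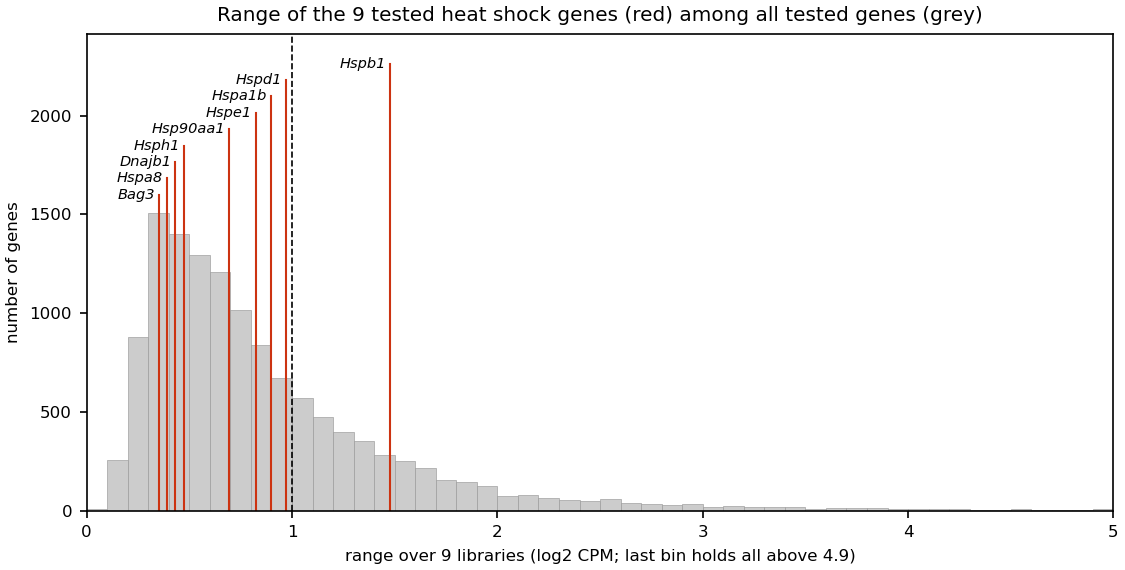
Distribution of the range over 9 libraries (log2 CPM, x axis) of 12813 tested genes (grey bars, number of genes on the y axis), with a red line for each of the 9 measured heat shock genes and a dashed line at 1, which is 2-fold. Hspb1 (1.48) lies to the right of the dashed line, and the other 8 genes lie between 0.35 (Bag3) and 0.97 (Hspd1).

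The inducible HSP70 was read almost entirely as Hspa1b. Hspa1b (ENSMUSG00000090877, chromosome 17, 34956436 to 34959238, minus strand) stood at 48.2, 78.7, 48.5, 42.2, 69.8, 47.8, 43.9, 69.3 and 45.5 CPM, library by library from 1 to 9. The 3 libraries 2, 5 and 8 lay above all others, with no overlap, and the other 6 stayed within 42.2 to 48.5 CPM. The highest and lowest library differed 1.87-fold (95% interval 1.75 to 2.00, counting error only), and the chi-square test on counts scaled with edgeR gave an adjusted p of 9.37e-188. Hspa1a (ENSMUSG00000091971, chromosome 17, 34969190 to 34972156, minus strand) had 0, 9, 2, 0, 5, 6, 6, 0 and 1 counts in libraries 1 to 9. Its highest level was 0.256 CPM in library 2, and it did not pass the filter. The floor of 3 counts was worth 0.105 CPM in library 1 and less in libraries 4 and 8. For their 0 counts the exact 95% intervals reached higher, to 0.128 CPM in library 1, 0.122 in library 4 and 0.101 in library 8. Over all libraries Hspa1a received 29 counts and Hspa1b 15857.

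Both genes have a single annotated exon, and 9951 bases lie between them. Of all stretches of 50 bases in the Hspa1a transcript 58.8% also occur in that of Hspa1b, and 1202 do not, among them all that reach into its last 786 bases. At stretches of 150 bases the shared part was 38.1%. RSEM, which made the counts, divides reads that fit both genes by likelihood, so the split between the 2 is uncertain, and how many reads fitted only one of them cannot be read from the counts. Hspa1l, a related HSP70 gene that starts 547 bases from Hspa1a in the opposite direction, stayed between 1.88 and 3.24 CPM.

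Hspa8 (ENSMUSG00000015656, chromosome 9, 40800984 to 40810087), the constitutive HSC70 of the cytosol, had the highest level per length of the 10 genes, a median of 307.6 CPM per kb of exon. It stood at 1323, 1198, 1151, 1404, 1317, 1213, 1510, 1436 and 1366 CPM, library by library from 1 to 9. The range was only 1.31-fold (95% interval 1.296 to 1.329). At each of the 3 places the level was lowest in the first block and highest in the third, and each of the 6 steps between neighbouring blocks was larger than the 95% counting intervals.

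Per length, Hspd1 (193.8 CPM per kb) and Hsp90aa1 (167.0) followed Hspa8, and their ranges over the libraries overlapped each other but not that of Hspa8. Hspe1 (69.2) and Hspb1 (60.7) overlapped in turn. Bag3 (33.03) came next, its highest library above the lowest of Hspb1, and then without overlap Hsph1 (21.0), Dnajb1 (20.95) and Hspa1b (17.2), which overlapped each other, and Hspa1a (0.0191) was last. These lengths are summed over all annotated exons, which makes the value of a gene with long rare exons too low.

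Dnajb1, Hsph1 and Bag3 serve HSP70. Dnajb1 (ENSMUSG00000005483, chromosome 8, 83608193 to 83612653), which hands clients to HSP70 and starts its ATPase cycle, stood at 68.8, 79.4, 67.1, 64.0, 77.2, 60.3, 60.6, 73.8 and 58.9 CPM, library by library from 1 to 9. Its libraries 2, 5 and 8 lay above all others, as those of Hspa1b did, over a range of 1.35-fold (95% interval 1.26 to 1.45). At each place its level was lower in each later block, although only 1 of the 6 steps passed the counting intervals. Bag3 (ENSMUSG00000030847, chromosome 7, 128523616 to 128546981), which releases clients from HSP70 and ties it to autophagy, was at 97.6, 98.6 and 104 CPM in libraries 2, 5 and 8 and at 81.2 to 85.9 CPM in the other 6. The groups of libraries did not overlap, but the range of 1.28-fold (95% interval 1.21 to 1.34) was the narrowest of the 9 measured genes. Hsph1 (ENSMUSG00000029657, chromosome 5, 149614287 to 149636376), the HSP110 that exchanges the nucleotide of HSP70, went with neither. Library 1 had 189 CPM and library 4 had 165 CPM, and the other 7 libraries lay within 136 (library 6) to 156 CPM (library 3). Its range, 0.47 on the log2 scale, was 0.28 when library 1 was left out.

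Hspb1 (ENSMUSG00000004951, chromosome 5, 135887919 to 135889563), the small heat shock protein also called HSP25, holds unfolded proteins without using ATP and was the gene of widest range. It stood at 62.6, 102, 57.3, 60.8, 105, 50.1, 66.9, 112 and 40.3 CPM, library by library from 1 to 9. Libraries 2, 5 and 8 lay within 102 to 112 CPM and all others within 40.3 to 66.9 CPM. The 2.79-fold range (95% interval 2.57 to 3.02) came with a chi-square of 2269, whose adjusted p lay below the smallest number the software can hold. Without library 9 the range was 1.16 on the log2 scale in place of 1.48. Within each block the library at the third place was the lowest. A processed copy of this gene, Hsp25-ps1, was read at 0.519 to 2.98 CPM.

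Hsp90aa1 (ENSMUSG00000021270, chromosome 12, 110690605 to 110702728), the inducible cytosolic HSP90, stood at 676, 523, 637, 772, 554, 656, 846, 630 and 811 CPM, library by library from 1 to 9. Libraries 2, 5 and 8 lay below the others, library 8 only just below library 3, and this order was lost with DESeq2 size factors and with library totals alone. Within each block library 2, 5 or 8 was the lowest. At each place the level was higher in each later block, with all 6 steps beyond the counting intervals. The range was 1.62-fold (95% interval 1.59 to 1.65).

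Hspd1 and Hspe1 encode HSP60 and its lid HSP10, which together fold proteins in mitochondria. Hspd1 (ENSMUSG00000025980, chromosome 1, 55077835 to 55088243, minus strand) stood at 512, 349, 501, 581, 391, 563, 676, 456 and 683 CPM, library by library from 1 to 9. All others lay above libraries 2, 5 and 8 without overlap, and the range was 1.96-fold (95% interval 1.91 to 2.01). Hspe1 (ENSMUSG00000073676, chromosome 1, 55088132 to 55091307, plus strand) stood at 102, 83.7, 99.9, 119, 89.9, 109, 127, 102 and 148 CPM, library by library from 1 to 9. Libraries 2, 5 and 8 were again the lowest of their blocks, but library 8 overlapped libraries 1 and 3. Both genes were higher in each later block at every place. The range of Hspe1, 1.77-fold (95% interval 1.68 to 1.87), was 0.82 on the log2 scale with library 9 and 0.60 when it was left out. The 2 genes overlap by 112 bases on opposite strands, which cannot be told apart unless strand was used in counting. A copy of Hspd1, Hspd1-ps3, was read at 2.22 CPM (library 2) to 5.91 CPM (library 9).

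**Figure D2:**
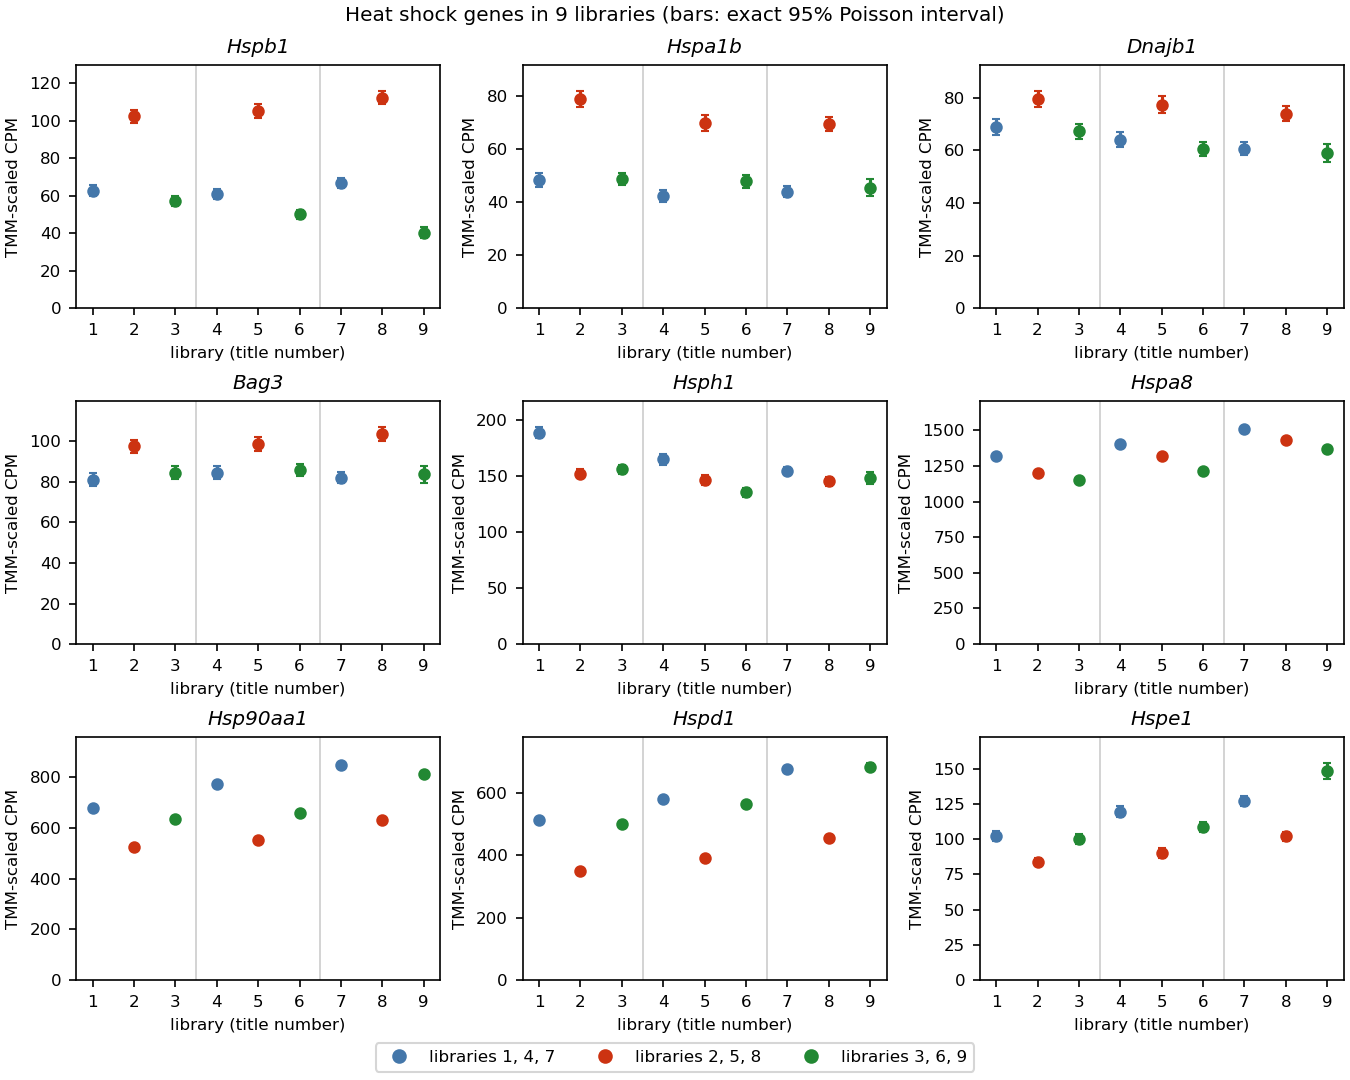
Level of the 9 measured heat shock genes (y axis, TMM-scaled CPM from 0) in each library (x axis, title number), with exact 95% Poisson intervals as bars, grey lines between blocks and colour by place in the block. Hspb1, Hspa1b, Dnajb1 and Bag3 are highest in libraries 2, 5 and 8, Hspd1 is lowest there, as is Hsp90aa1 with this scaling but not with DESeq2 size factors or library totals, and Hspa8, Hsp90aa1, Hspd1 and Hspe1 are higher in each later block at every place.

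Seen by place, 4 of the 9 measured genes had libraries 2, 5 and 8 all above the other 6 (Hspb1, Hspa1b, Dnajb1 and Bag3), against 19.0% of all tested genes, and 2 of 9 had them all below (Hspd1 and Hsp90aa1), against 20.1%. The count above stayed at 4 with DESeq2 size factors and with library totals alone, whereas the count below was 1 (Hspd1) under both. Seen by block, 4 of 9 were higher in each later block at all 3 places (Hspa8, Hsp90aa1, Hspd1 and Hspe1), against 13.6% of all tested genes. Only Dnajb1 was lower in each later block at all places, against 12.6%. These orders rest on title numbers alone, and no test over them was made.

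A score over the 9 genes, the median of each gene's log2 CPM minus its own median over the libraries, lay between -0.03 in library 3 and 0.12 in library 8. A median over genes that differ in direction is flatter than its members by construction. Of 9853 genes at 5 CPM or more, those closest to this profile were Chtf8, Cstf1, Map4, Zmym4 and Atp5j2, at root-mean-square differences of 0.03 to 0.04 on the log2 scale over the 9 libraries. The profile spanned only 0.15 and these genes 0.11 to 0.20 on that scale. They were picked as the smallest differences from a nearly flat profile, so their closeness is no result.

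Ratios within a library do not depend on how the libraries were scaled. The pair Hspb1 and Hspd1 was chosen for this after the values had been seen. There were 0.122, 0.293, 0.114, 0.105, 0.269, 0.0889, 0.0990, 0.246 and 0.0590 counts of Hspb1 per count of Hspd1 in libraries 1 to 9. The ratio was 0.246 or more in libraries 2, 5 and 8, and 0.122 or less in the others. Counts of the Hspa1 pair per count of Hspa8, the inducible against the constitutive HSP70, were 0.0659 in library 2 (95% interval 0.0634 to 0.0685), 0.0532 in library 5 and 0.0483 in library 8, above the range of 0.0291 to 0.0422 in the other 6. This ratio was highest at the second place and lowest at the first in each block. Dnajb1 had 0.0401 (library 7) to 0.0663 (library 2) counts per count of Hspa8, and here library 8 (0.0514) lay below libraries 1 (0.0520, with overlapping intervals) and 3 (0.0583, without).

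The balance of the 2 cytosolic HSP90 genes also differed. Counts of inducible Hsp90aa1 per count of constitutive Hsp90ab1 were 0.200 in library 2, 0.193 in library 5 and 0.190 in library 8, and 0.217 (library 9) to 0.249 (library 4) in the others. Their intervals did not overlap, the nearest being 0.197 to 0.204 in library 2 and 0.213 to 0.221 in library 9. The ratio of Hspd1 to Hspe1 lay between 4.17 (library 2) and 5.32 (library 7). It was 4.48 or less in libraries 2, 5 and 8 and 4.61 or more in the others, although the intervals of libraries 8 and 9 overlapped.

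**Figure D3:**
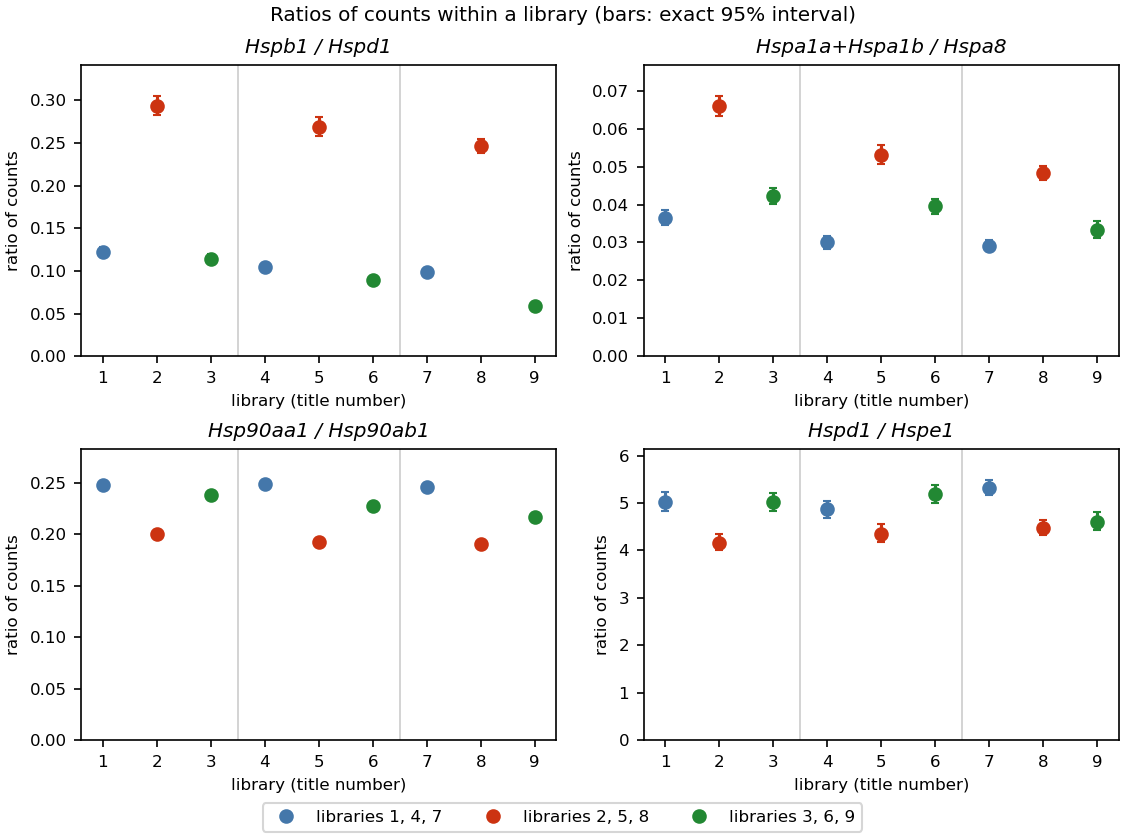
Ratio of the counts of 2 genes within each library (y axis, from 0; x axis, title number), with exact 95% intervals as bars and colour by place in the block. The ratios of Hspb1 to Hspd1 and of the Hspa1 pair to Hspa8 are highest in libraries 2, 5 and 8, and those of Hsp90aa1 to Hsp90ab1 and of Hspd1 to Hspe1 are lowest there.

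The wider chaperone system was followed in 10 further lists with 77 genes, of which 71 were measured. All 71 varied beyond counting noise and 13 were called variable, against 28.0% of all tested genes. The lists were chosen with earlier results of these data known. Libraries 2, 5 and 8 lay all above the others in 10 of the 71 (8 with DESeq2 size factors), against 19.0% of all tested genes, and all below in 27 (24 with library totals alone), against 20.1%. At all 3 places 16 were higher in each later block, against 13.6% of all tested genes, and 4 lower, against 12.6%.

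Among small heat shock proteins all 4 measured genes, Hspb2, Hspb6, Hspb8 and Cryab, were highest in libraries 2, 5 and 8, as Hspb1 was. This order held in 19.0% of all tested genes, and Hspb8 overlapped with DESeq2 size factors. Cryab, the alpha-B crystallin gene and a close relative of Hspb1, stood at 20.8, 42.0, 24.6, 20.7, 37.6, 20.6, 20.1, 36.5 and 15.5 CPM, library by library from 1 to 9, a 2.703-fold range. Hspb2, which lies next to Cryab in the genome, reached 9.14 CPM in library 8 against 2.79 in library 9. Of the 4 measured genes these 2 were called variable, against 28.0% of all tested genes. Hspb8, the partner of Bag3, ranged 1.36-fold only, from 83.7 to 114 CPM. Hspb3 had 0 counts in all libraries and Hspb7 at most 0.173 CPM.

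Hspa9, Lonp1 and Dnaja3, which work beside Hspd1 in mitochondria, were lowest in libraries 2, 5 and 8, as Hspd1 was. Hspa9, the mitochondrial HSP70, stood at 1266, 579, 1208, 1370, 597, 1318, 1431, 655 and 1397 CPM, library by library from 1 to 9. No library but 2, 5 and 8 lay below 1208 CPM. Lonp1, the matrix protease LON, had 185 CPM in library 2 and 556 in library 7 (2.998-fold), and Dnaja3, the mitochondrial J-domain protein, had 57.0 and 144 CPM in the same libraries. These 3 were called variable. Trap1, the mitochondrial HSP90, ranged 1.71-fold with overlap. In the list of mitochondrial proteostasis 2 of 7 genes were called variable, against 28.0% of all tested genes. Libraries 2, 5 and 8 lay all below the others in 3 of the 7 (Clpx not with library totals alone), against 20.1%. Htra2 of that list overlapped and was highest in library 8 (82.4 CPM), and Yme1l1, an inner membrane protease, ranged only 1.13-fold. Hspa9 and Hspd1 did not keep one ratio, with 1.43 to 1.66 counts per count of Hspd1 in libraries 2, 5 and 8 and 2.04 to 2.47 in the others, a pair chosen after the values were seen.

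In the cytosolic chaperonin CCT, which folds actin and tubulin, 0 of 8 subunit genes were called variable, against 28.0% of all tested genes. Cct4 (1.99-fold) and Cct8 (1.97-fold) came close. Libraries 2, 5 and 8 lay all below the others in 1 of the 8 (Cct5), against 20.1% of all tested genes. All 8 were lowest in library 2, and 7 of the 8 were highest in library 7. The share of all genes with those extremes was not counted. Of the subunits 7 were higher in each later block at all places, against 13.6% of all tested genes, and the exception was Cct3. Cct4 stood at 238, 160, 211, 280, 189, 235, 320, 220 and 283 CPM, library by library from 1 to 9.

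Among 13 co-chaperones of HSP90 and HSP70, 2 were called variable, against 28.0% of all tested genes. Libraries 2, 5 and 8 lay below all others in 10 of the 13, against 20.1%. Ppid, a cyclophilin bound to HSP90, was at 84.9 to 88.5 CPM in libraries 2, 5 and 8 and at 133 to 174 CPM in the rest. Chordc1, an HSF1 target, was at 61.7 to 64.8 CPM there and at 87.7 to 102 CPM in the rest. Fkbp5, a glucocorticoid-induced immunophilin, ranged 2.26-fold (library 6 at 5.86 CPM, library 8 at 13.2) and was lower at the third place than at the first in each block. Cacybp was the one co-chaperone of the 13 with libraries 2, 5 and 8 above the others, but not with DESeq2 size factors, and Unc45a overlapped with library totals alone.

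Of 12 J-domain genes 3 were called variable, against 28.0% of all tested genes. Beside Dnaja3 these were Dnajc2, a ribosome-bound chaperone, at 47.3 CPM (library 2) to 109 CPM (library 7), and Dnajb4, a close relative of Dnajb1, at 87.1 CPM (library 9) to 181 CPM (library 1). Dnajb4 and Hspa4l, an HSP110 relative of Hsph1, were lower in each later block at all places. Hspa4l stood at 71.5, 40.9, 58.7, 43.0, 31.6, 35.7, 29.4, 30.2 and 32.8 CPM, library by library from 1 to 9. Hsph1 was likewise highest in the first block at every place. Hspa4, of the same HSP70 list as Hspa4l, went the other way, at 330 CPM (library 2) to 500 CPM (library 9). It was higher in each later block at all places, though not with library totals alone. In the HSP70 list Hspa9 and Hspa4l were the 2 variable genes of 7, again against 28.0% of all tested genes. Hspa2 was highest in libraries 2, 5 and 8 (22.4 to 24.5 CPM against 13.2 to 16.2).

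The heat shock factor genes differed little. Hsf1, which encodes the master regulator, lay between 42.4 CPM (library 2) and 56.5 (library 7), 1.33-fold apart, Hsf2 from 19.0 to 25.6 CPM and Hsf4 from 3.83 to 5.99 CPM. None of the 4 measured genes of this list was called variable, against 28.0% of all tested genes. Transcript levels do not show how active HSF1 was. Among 8 BAG proteins and exchange factors 0 were called variable, against the same 28.0%. The widest were Grpel1, the partner of Hspa9 in mitochondria, at 59.0 to 104 CPM, and Grpel2, at 17.1 to 30.2 CPM. The HSP90 list held only Trap1 and Hsp90ab1, which had 2611 CPM (library 2) to 3745 CPM (library 9).

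Other genes listed here as HSF1 targets were divided, with 3 of 8 called variable, against 28.0% of all tested genes. Hmox1, haem oxygenase 1, was at 165 to 212 CPM in libraries 2, 5 and 8 and at 378 to 579 CPM elsewhere, whereas Serpinh1, the collagen chaperone HSP47, was at 1157 to 1299 CPM there and at 761 to 1029 CPM elsewhere. Creld2 was at 45.8 to 68.0 CPM in libraries 2, 5 and 8 and at 29.8 to 39.7 CPM elsewhere. Rgs2 had the widest range of the list, 0.866 CPM in library 7 to 3.35 in library 2, at low counts.

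**Figure D4:**
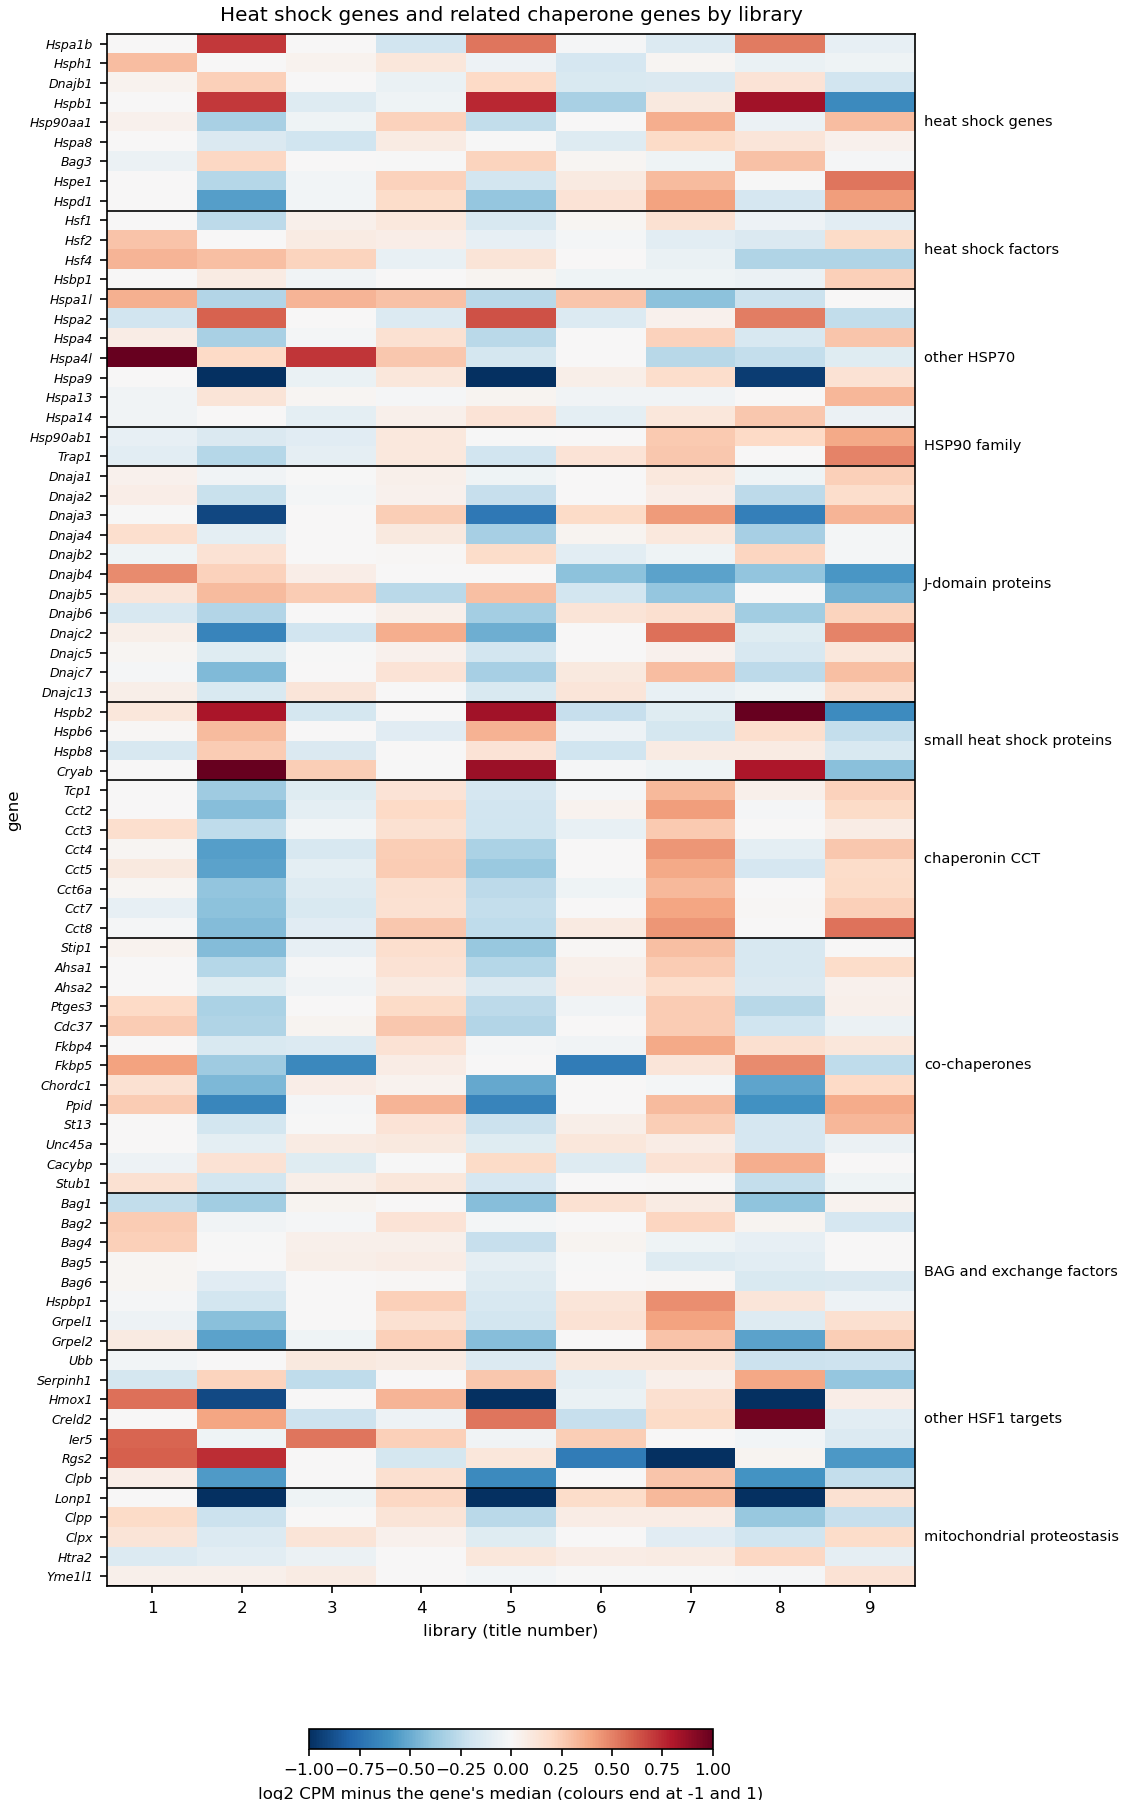
Level of 9 heat shock genes and the related genes, all but 1 of the 71 measured (rows, grouped by list), in each library (columns, title number), as log2 CPM minus the gene's median, with red above and blue below that median and colours ending at -1 and 1. Hspb1, Hspb2, Cryab, Hspa1b and Hspa2 are red in libraries 2, 5 and 8, and Hspa9, Lonp1, Dnaja3, Ppid and Hspd1 are blue there.

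The genes with profiles closest to the 2 heat shock genes of widest range were found by root-mean-square difference over the 9 libraries. For Hspb1 these were Tubb5 (a beta tubulin, 0.11 on the log2 scale), Npr1 (0.11), Trex1 (0.11), Wdr6 (0.12) and Hspb2 (0.12), among 9853 candidates. For Hspd1 they were Dnttip2 (0.06), Mrps18b (a mitochondrial ribosomal protein, 0.06), Tomm70a (a mitochondrial import receptor, 0.06), Eif4a1 (a translation initiation factor, 0.06) and Rps6ka3 (0.06). These genes were picked as the smallest differences, so the size of the differences is no result.

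Other measures moved with the same libraries. Mki67, the marker of dividing cells, was at 62.9 to 149 CPM in libraries 2, 5 and 8 and at 4.98 to 28.1 CPM in the rest, and Top2a and Ccnb1 lay above the rest there as well. Trib3, a target of ATF4 in the amino acid response, was at 49.3 to 62.9 CPM there and at 277 to 389 CPM in the rest. Ddit3 and Asns, of the same response, also lay below the rest. Mki67, Top2a and Ccnb1 were also higher in each later block at all 3 places, as were 13.6% of all tested genes. Of all tested genes 19.0% had libraries 2, 5 and 8 all above the others, and 20.1% had them all below. Of the endoplasmic reticulum chaperones, Hspa5 had 974 CPM (library 3) to 1634 CPM (library 7) with overlap, and Hsp90b1 was highest in libraries 2, 5 and 8 (1031 to 1174 CPM against 799 to 982). The part of these differences in the values of the heat shock genes was not tested.

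Immediate early genes, which respond to handling of cells within minutes, did not share one order. Fosb stood at 31.6 to 52.4 CPM at the first place, 67.7 to 75.8 at the second and 88.6 to 120 at the third. Jun and Junb were lower in each later block at all places, as Dnajb1 and 12.6% of all tested genes were. All 6 steps passed the counting intervals in Jun and in Junb, against 1 of 6 in Dnajb1. Junb lay between 540 CPM (library 9) and 1001 CPM (library 2). Atf3 lay below the rest in libraries 2, 5 and 8 (2.82 to 3.30 CPM against 9.59 to 19.5), and Ier2 above (332 to 372 CPM against 212 to 303). Egr1 ranged 1.44-fold with overlap. Their part in the result was not tested.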

How the data were processed

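Per the file headers and the submitters' processing notes, the authors deposited 1 table of RSEM expected counts per gene, whole numbers without any normalisation, in 1 column for each of the 9 libraries of poly(A) RNA. Named there are STAR 2.7.8a, RSEM 1.3.3, cutadapt 2.3 and the build GRCm38, but neither the annotation release nor a strand setting. The expected counts were used as deposited by the authors.

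TMM factors came from edgeR 4.0.16 (R 4.3.3) and were computed on the 12813 genes that passed its filter (10 counts at the median library size in every library, 15 in total), which hold 99.9% of all counts. Log2 CPM had a prior count of 2. A chi-square test of dispersion, Benjamini-Hochberg adjusted over all 12813 genes, asked whether the 9 counts varied beyond counting noise, and a gene was called variable at an adjusted p under 0.05 and a range of at least 1 on the log2 scale. With no groups there was no coefficient for edgeR's quasi-likelihood test. The procedure was tested on simulated data with counting noise only and known changes in some genes. In the real data 94.1% of tested genes varied beyond that noise, so this test cannot show how the calls behave there. Intervals are exact 95% Poisson intervals for a level and conditional binomial intervals for a ratio, and they cover counting error only.

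Genes named are the 10 members, the 2 of widest range in each related list, the marker and context genes, the 5 nearest profiles of 3 profiles and copies of members. Other related genes were named after their values were seen, as were the orders by place and block. The members and lists were chosen with earlier results of these data known. Coordinates are from GENCODE M21 on GRCm38, and promoters from RefSeq on GRCm38.p6. DESeq2 1.42.0 size factors were an alternative, beside library totals, other filters, another prior count and leaving out each library. Values of 2 genes are not reported here.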

Additional observations from a re-analysis of the deposited data

How the results depend on the processing

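The count of heat shock genes called variable was 1 with TMM scaling, and it was also 1 with DESeq2 size factors, with library totals alone, with a mean of at least 1 CPM, with a prior count of 0.5 and without any one library (1 to 1). It rose to 2 without a filter on low counts, where Hspa1a entered (log2 range 2.34, resting on 0 to 9 counts), to 5 at 1.5-fold and to 2 with the interquartile range. The count of related genes called variable lay between 11 and 14 without 1 library, and the range of the median score between 0.11 and 0.21 on the log2 scale. The count of heat shock genes with libraries 2, 5 and 8 all below the others was 1 in place of 2 with DESeq2 size factors, with library totals alone and without library 2, 6 or 7, and 3 without library 3 or 8. The count lower in each later block was 2 in place of 1 without library 4, 6, 7 or 9, since fewer libraries were compared, and among related genes 7 without library 5 and 9 without library 9, in place of 4. DESeq2 size factors moved the median of all genes in a library by at most 0.02 and library totals by at most 0.05 on the log2 scale. The TMM factors were 1.03 to 1.04 in libraries 2, 5 and 8 and 0.975 to 0.998 in the others. Library totals alone therefore raised levels in libraries 2, 5 and 8 relative to the rest. Library 9 is the shallowest. No paired analysis was possible because the labels put no library in a group.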
